A study of Mus musculus with 18 samples.

Results

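The comparison of quercetin with its vehicle in skeletal muscle was taken as all libraries labelled as skeletal muscle (SKM), which were 6 of the 18 libraries of the study. The other 12 come from white and brown fat. All mice were wild-type C57BL/6J. The 3 libraries of the quercetin arm are from mice given 0.125 mg/kg of quercetin hydrate by oral gavage, each time in 100 µL of a fluid made of 10% PEG400 in phosphate-buffered saline, and the 3 of the vehicle arm from mice given the same fluid without quercetin. For the sequenced mice, the sources used here do not give age, sex, length of treatment or which muscle was taken. The lifespan study of the same work used male mice dosed weekly from 14 months of age. The titles number the libraries 1 to 3 in each arm, and values below are always given in that order. The question was which transcripts differed between the arms, in which direction, whether all 3 libraries of one arm lay apart from all 3 of the other, and which differences depended on 1 library.

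Quercetin is a flavonol of many food plants that is used in aging research as an antioxidant and as a compound directed at senescent cells. Skeletal muscle balances protein synthesis against breakdown. In fasting, glucocorticoid excess, inflammation and disuse, FoxO transcription factors raise the ubiquitin ligases Trim63 (MuRF1) and Fbxo32 (atrogin-1), which mark muscle proteins for the proteasome. Glucocorticoids, cytokines and zinc also raise metallothioneins, small metal-binding proteins, together with the zinc importer Slc39a14 (ZIP14). Contraction depends on the coupling of the surface membrane to calcium release from the sarcoplasmic reticulum, and on myosin isoforms that set the speed of each fibre.

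Each library held between 8997823 and 12311345 gene counts, with 19046 to 21408 genes at 1 count or more. Library vehicle 1 stood apart from the rest: its log2 CPM (CPM are counts brought to 1 library size with TMM factors) had a Pearson's r across genes of 0.862 to 0.901 with the other 5 libraries, where all other pairs lay between 0.933 and 0.969. Vehicle 2 and 3 were closer to the quercetin libraries (mean r 0.960 and 0.957) than to each other (r 0.933). Their mean r with their own arm (0.917 and 0.898) includes vehicle 1. Genes are not independent replicates in these values. The first principal component held 60.9% of the variance, with vehicle 1 at -107.4 and the other 5 libraries between 1.77 and 31.6. The 13 skeletal muscle markers summed to 76359 to 131512 CPM, so all 6 libraries carried muscle transcripts at high levels. Quercetin 2 also held 249548 reads of 11 seminal vesicle genes (2.77% of its counts), against 0 to 2 reads in each other library. The same library held 2256 reads of Ucp1, the uncoupling protein of brown fat, against 0 to 6 reads in each of the others. The 14 adipocyte markers summed to 14341 CPM in vehicle 3 and to 2225 to 7081 CPM in the other 5 libraries. Quercetin 3 was read on another flow cell than the other 5 libraries. In bulk tissue, fewer cells of a type and less RNA per cell cannot be told apart.

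No single gene passed the test of a difference between the arms. By edgeR's quasi-likelihood test with Benjamini-Hochberg adjustment, 0 of 13562 genes (0%) passed an adjusted p of 0.05, and the smallest adjusted p was 0.910. When genes with low counts were kept in, 32 of 26302 passed in the same test, 20 of them higher and 12 lower with quercetin. Quercetin 2, the library with the seminal vesicle reads, alone held at least 99.1% of the CPM of 15 higher genes, among them Ucp1 of brown fat. The remaining 5 are antibody genes (Ighg1, Ighg2b, Ighv1-53, Igkv3-10 and Igkv3-2, named after their values were seen). Among the 12 lower genes, vehicle 1 was the highest library for all but Serpina3m and Serpina3n, which were highest in vehicle 3. In the genes that vehicle 1 led, its share of the CPM ran from 51.2% for Cldn5 to 99.5% for Aldh8a1. These genes too were named after their values were seen. At an unadjusted p under 0.05 there were 406 genes (2.99%), 132 higher (0.973%) and 274 lower (2.02%) with quercetin, fewer than the 678 expected if no gene differed. Every gene value below is therefore a difference between these 6 libraries that did not pass the test. The exceptions are Cldn5, Mt1, Slc39a14, Lcn2, Orm2, Ighg2b and Ucp1, which passed in the fit without a filter. That fit also passed the seminal vesicle gene Svs2, at 5812 CPM in quercetin 2 and 0 CPM in each other library. A pass in it therefore does not show that the arms differ. Estimates were higher with quercetin for 6377 genes (47%) and lower for 7185 (53%), with a median log2 fold change, quercetin minus vehicle, of -0.034. All 3 libraries of one arm lay above all 3 of the other for 1254 genes (9.25%), of which 693 (5.11%) were higher and 561 (4.14%) lower with quercetin. These shares apply to every count of separated list members below. For a single gene, an exact permutation test of 3 libraries against 3 cannot give a p below 0.1, which is the p of separated arms. If the libraries of both arms were interchangeable, a share of 0.1 of the genes would be separated. The 9.25% found is below that share.

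Most of the large differences downwards depended on vehicle 1. Of 1102 genes with a difference of 2-fold or more, 441 were higher and 661 lower with quercetin. Leaving out vehicle 1 took over 0.5 of the log2 fold change from 468 of them, of which 450 were lower with quercetin. The same count was 13 and 54 without vehicle 2 and 3, and 32, 23 and 29 without quercetin 1, 2 and 3. Vehicle 1 was the highest library for 4600 of the tested genes and the lowest for 5047, where each other library was the highest for 1125 to 2380 and the lowest for 929 to 2198. It was also 4-fold or more below every other library for 689 genes, against 1 to 4 genes for each of the others. In all 6 fits that leave out 1 library, 489 of the 1102 genes kept over 0.5 of their log2 fold change, and here the balance was the other way, with 345 higher and 144 lower. Of these, 277 were also separated between the arms, 199 higher and 78 lower.

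**Figure D1:**
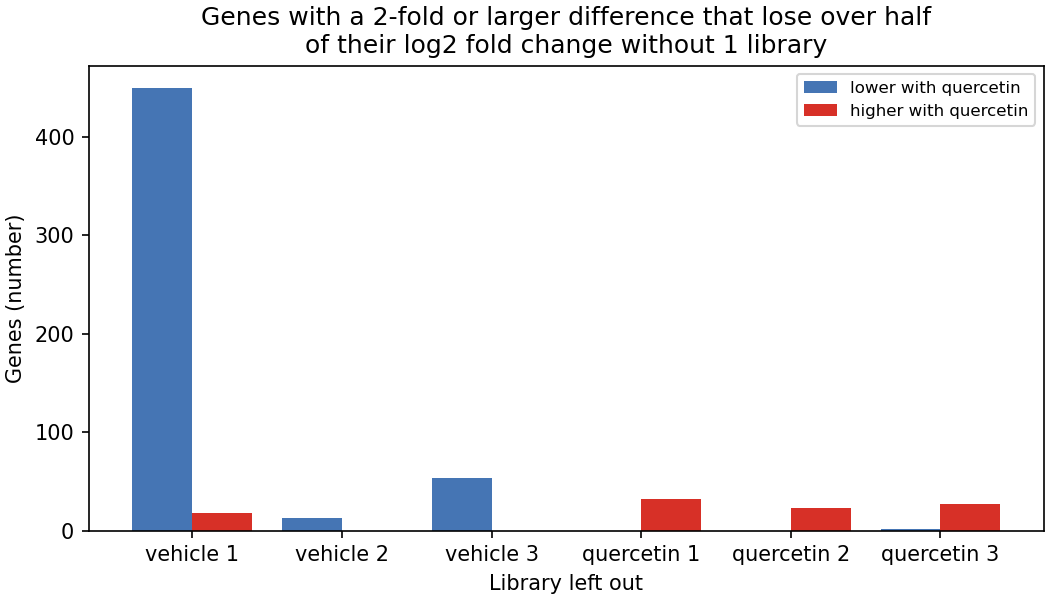
Number of genes (vertical axis), among the 1102 with a 2-fold or larger difference, that lost over 0.5 of their log2 fold change when the library on the horizontal axis was left out, with separate bars for genes higher and lower with quercetin. The bar of vehicle 1 holds 450 lower and 18 higher genes, and the other 5 libraries account for 13 to 54 genes each.

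A pair of claudins, which form the seals between neighbouring cells, headed the genes that were lower with quercetin and separated between the arms. The leading genes in each direction were picked for separated arms and for a sign that held whichever library was left out, so those properties describe them and are not evidence. Coordinates are on build GRCm38. Cldn5, the claudin of endothelial tight junctions (ENSMUSG00000041378, chromosome 16, 18776847 to 18778262, plus strand), was at 295, 84.5 and 106 CPM with vehicle and 37.8, 27.1 and 23.0 CPM with quercetin. The lowest vehicle library lay well above the highest quercetin library. Its log2 fold change was -2.46 ± 0.52 (SE), and -1.70 without vehicle 1, the highest library. In the fit with no filter on low counts, which also passed genes read in 1 library, its adjusted p in edgeR was 0.0234. Cldn15, a claudin that forms cation channels (ENSMUSG00000001739, chromosome 5, 136966616 to 136975858, plus strand), was at 29.0, 15.7 and 19.7 CPM with vehicle and 5.82, 6.15 and 8.77 CPM with quercetin, or -1.64 ± 0.36, with no library far from its arm. The adhesion molecule Esam was the third separated gene of the claudin and junction list, at 114, 95.3 and 82.6 CPM with vehicle and 72.1, 53.9 and 64.7 CPM with quercetin. Of the 30 genes of that list 17 had enough counts to be tested, 6 higher and 11 lower, with a median of -0.15 (from -0.26 without quercetin 2 to -0.074 without vehicle 2). Among all genes, 4.14% were separated and lower, and Cldn5 and Cldn15 had been picked for separation. Endothelial markers, with Cldn5 among them, were not all on one side: 7 of 20 had a higher and 13 a lower estimate, with a median of -0.16 (-0.048 without vehicle 2) and summed levels of 4968, 4194 and 6556 CPM with vehicle and 3310.4, 5493 and 3473 CPM with quercetin. Tek, the endothelial angiopoietin receptor, was on the other side, at 32.0, 34.4 and 34.9 CPM with vehicle and 42.6, 48.1 and 37.3 CPM with quercetin. Regulators of claudin expression in endothelium were 14 higher and 11 lower of 25, with a median of 0.022 (from -0.026 without quercetin 1 to 0.18 without vehicle 2).

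Metal-binding and acute-phase genes formed a second group with lower levels under quercetin. Mt1, a metallothionein (ENSMUSG00000031765, chromosome 8, 94179082 to 94180327, plus strand), was at 4225, 664 and 1637 CPM with vehicle and 485, 226 and 168 CPM with quercetin. The spread within the vehicle arm was wide, from 664 to 4225 CPM, but its lowest library was above the highest quercetin library. The log2 fold change was -2.89 ± 0.74, and -1.97 without vehicle 1. Slc39a14, the zinc, iron and manganese importer ZIP14 (ENSMUSG00000022094, chromosome 14, 70303469 to 70351425, minus strand), was at 945, 84.8 and 239.5 CPM with vehicle and 77.0, 59.8 and 36.4 CPM with quercetin, or -2.87 ± 0.83 (-1.48 without vehicle 1). Vehicle 2 and quercetin 1 nearly met. Lcn2, lipocalin 2, which binds iron-loaded siderophores, was at 168, 13.3 and 38.1 CPM with vehicle and 6.81, 9.60 and 9.01 CPM with quercetin, or -3.11 ± 0.84, and -1.60 without vehicle 1. Orm2, the plasma acute-phase protein orosomucoid 2, was low throughout, at 13.1, 2.99 and 1.70 CPM with vehicle and 0.448, 0.104 and 0.593 CPM with quercetin, which were 126, 29 and 24 reads with vehicle and 5, 1 and 5 reads with quercetin. Mt2, the neighbour of Mt1, ranked the libraries in nearly the order of Mt1, at 15.1, 1.96 and 5.45 CPM with vehicle and 2.60, 1.36 and 1.42 CPM with quercetin, with vehicle 2 inside the quercetin range. Over the metallothionein and zinc list, 8 of 9 tested members were lower and 1 was higher, with a median of -0.59, which was -0.52 without vehicle 1. Its 2 separated members, Mt1 and Slc39a14, are among the leading genes picked for separation. Over all genes, 4.14% were separated and lower. With no filter on low counts, Lcn2 passed with an adjusted p in edgeR of 0.0234, and Mt1, Slc39a14 and Orm2 with 0.0456. That fit also passed genes read in 1 library, and vehicle 1 was the highest library for each of these genes. The median of the zinc list stayed between -0.77 and -0.35 whichever library was left out.

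The promoters of both metallothioneins are shown because these genes are the textbook targets of the metal-responsive factor MTF-1, which binds the metal response element core TGCACNC or TGCGCNC. The windows run from 250 bases before to 30 bases after the RefSeq transcription start on GRCm38.p6, 5′ to 3′ on the plus strand, with matches to the core on either strand in capitals (Mt1 chr8:94178839-94179118, Mt2 chr8:94172368-94172647).

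Mt1 promoter: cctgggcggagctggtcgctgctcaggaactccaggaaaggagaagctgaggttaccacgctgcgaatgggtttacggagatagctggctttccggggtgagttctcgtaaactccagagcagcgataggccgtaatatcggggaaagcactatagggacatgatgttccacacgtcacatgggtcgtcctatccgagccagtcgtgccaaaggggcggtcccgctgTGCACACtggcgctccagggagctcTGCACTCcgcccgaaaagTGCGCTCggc

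Mt2 promoter: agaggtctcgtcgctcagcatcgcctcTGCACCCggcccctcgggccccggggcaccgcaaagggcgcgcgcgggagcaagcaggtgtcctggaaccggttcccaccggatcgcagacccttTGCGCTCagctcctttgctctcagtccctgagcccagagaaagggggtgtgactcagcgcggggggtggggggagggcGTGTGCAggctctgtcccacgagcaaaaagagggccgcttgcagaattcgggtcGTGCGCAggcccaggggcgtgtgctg

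The Mt1 window held 3 matches and the Mt2 window 4. Of 32851 promoters of the same length, 24.1% held at least 1. Among the other lower genes, the Cldn5 window held 1 match, and those of Cldn15, Foxo1, Gadd45a and Lcn2 held none. A match describes the letters in the window and is no measure of binding in these samples.

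The remaining lower genes have varied functions. Gadd45a, a growth arrest and DNA damage gene that denervation raises in muscle (ENSMUSG00000036390, chromosome 6, 67035096 to 67037457, minus strand), was at 317, 94.0 and 94.6 CPM with vehicle and 49.3, 46.1 and 34.5 CPM with quercetin. Vehicle 2 and 3 were nearly equal, and vehicle 1 was far above both. Its log2 fold change was -1.96 ± 0.52, and -1.12 without vehicle 1. Myf6 (MRF4), the myogenic regulator of mature fibres, was even within both arms, at 406, 286 and 342 CPM with vehicle and 161, 191 and 174 CPM with quercetin. Its log2 fold change of -0.98 ± 0.29 was -0.84 without vehicle 1. Zfp697, a zinc finger protein, was as even, at 20.02, 17.4 and 16.4 CPM with vehicle and 8.96, 7.61 and 7.71 CPM with quercetin, or -1.15 ± 0.28 (-1.06 without vehicle 1). Uchl1, a ubiquitin hydrolase best known from neurons, was at 25.4, 17.9 and 9.34 CPM with vehicle and 6.09, 5.94 and 7.35 CPM with quercetin. Prune2 was at 42.2, 21.9 and 12.0 CPM with vehicle and 6.45, 5.63 and 7.47 CPM with quercetin. Both spread widely within the vehicle arm and little within the quercetin arm. Prrt3, a proline-rich membrane protein, was at 22, 21 and 27 reads with vehicle and 2, 3 and 0 reads with quercetin, a count at which a few reads set the fold. Annotated genes overlap Zfp697, Uchl1, Gadd45a and Prune2, and also some genes named in other paragraphs, such as Mt2 and Foxo1. Reads of overlapping genes cannot be told apart without the strand setting of the counting, which no source used here gives.

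Genes higher with quercetin and separated between the arms included a collagen receptor, a pair of transcription factors and a tyrosine kinase. Itga11, the collagen-binding integrin alpha 11 (ENSMUSG00000032243, chromosome 9, 62677826 to 62783982, plus strand), was at 0.415, 2.27 and 2.12 CPM with vehicle and 6.54, 9.28 and 9.48 CPM with quercetin, from 4, 22 and 30 reads and 73, 89 and 80 reads. Its log2 fold change was 2.38 ± 0.60, and 1.94 without vehicle 1, the lowest library. Six2, a homeobox transcription factor, was at 3.42, 2.99 and 7.57 CPM with vehicle and 26.8, 13.6 and 13.5 CPM with quercetin, or 1.93 ± 0.49. Quercetin 1 was the highest library of its arm, and the value was 1.53 without it. Mafa, a basic leucine zipper factor known from pancreatic beta cells, was at 8.92, 24.7 and 23.5 CPM with vehicle and 74.4, 41.2 and 51.4 CPM with quercetin, or 1.55 ± 0.43. Tnk2 (ACK1), a non-receptor tyrosine kinase, was more even with quercetin than with vehicle, at 13.7, 22.0 and 18.1 CPM with vehicle and 35.8, 34.6 and 38.6 CPM with quercetin, or 1.02 ± 0.27. The same held for Lrtm1, a leucine-rich repeat membrane protein, at 10.4, 16.4 and 19.6 CPM with vehicle and 36.3, 35.7 and 33.4 CPM with quercetin. The log2 fold change of Lrtm1 was 1.18 ± 0.30, and 0.97 without vehicle 1, its lowest library. Tbc1d16, a Rab GTPase-activating protein, was at 16.2, 18.6 and 26.0 CPM with vehicle and 38.8, 39.1 and 36.9 CPM with quercetin. Colgalt2, which adds galactose to collagen, was at 2.39, 3.92 and 2.83 CPM with vehicle and 7.35, 8.03 and 7.35 CPM with quercetin, and Tnfrsf19, a receptor of the TNF family also called TROY, at 1.14, 4.44 and 3.82 CPM with vehicle and 13.9, 9.49 and 10.7 CPM with quercetin. Lrtm1 lies within Cacna2d3 on the opposite strand, and Tnk2 overlaps an antisense gene, so their reads could include those of the neighbours. Annotated genes also overlap Tbc1d16, Colgalt2 and Tnfrsf19.

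The other higher genes were at low levels, as several of those above were, with the exception of Irs1. Hrh1, the histamine H1 receptor, was at 4, 3 and 8 reads with vehicle and 18, 16 and 13 reads with quercetin. Hs3st5, a heparan sulfate sulfotransferase, was at 1.14, 1.13 and 0.920 CPM with vehicle and 5.29, 1.77 and 4.15 CPM with quercetin, with quercetin 2 near the vehicle range. Vash1, vasohibin 1, an inhibitor of angiogenesis, was at 3.42, 1.96 and 3.96 CPM with vehicle and 12.2, 6.67 and 7.11 CPM with quercetin. Entpd4b was at 0.726, 0.722 and 0.778 CPM with vehicle and 12.8, 1.67 and 2.49 CPM with quercetin, with most of the difference in quercetin 1, and its reads can be shared with its near-copy Entpd4. Irs1, the adaptor that carries the insulin signal from its receptor, was at 7.67, 27.0 and 27.2 CPM with vehicle and 51.8, 73.8 and 44.1 CPM with quercetin, or 1.45 ± 0.48. Both arms were apart, and the difference was 1.06 without vehicle 1, the lowest library. Irs1 was the only separated gene of 23 tested insulin signalling genes, of which 9 were higher and 14 lower, with a median of -0.086. That median was 0.022 with upper-quartile factors in place of TMM, and ranged from -0.27 without quercetin 1 to 0.018 without vehicle 1.

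**Figure D2:**
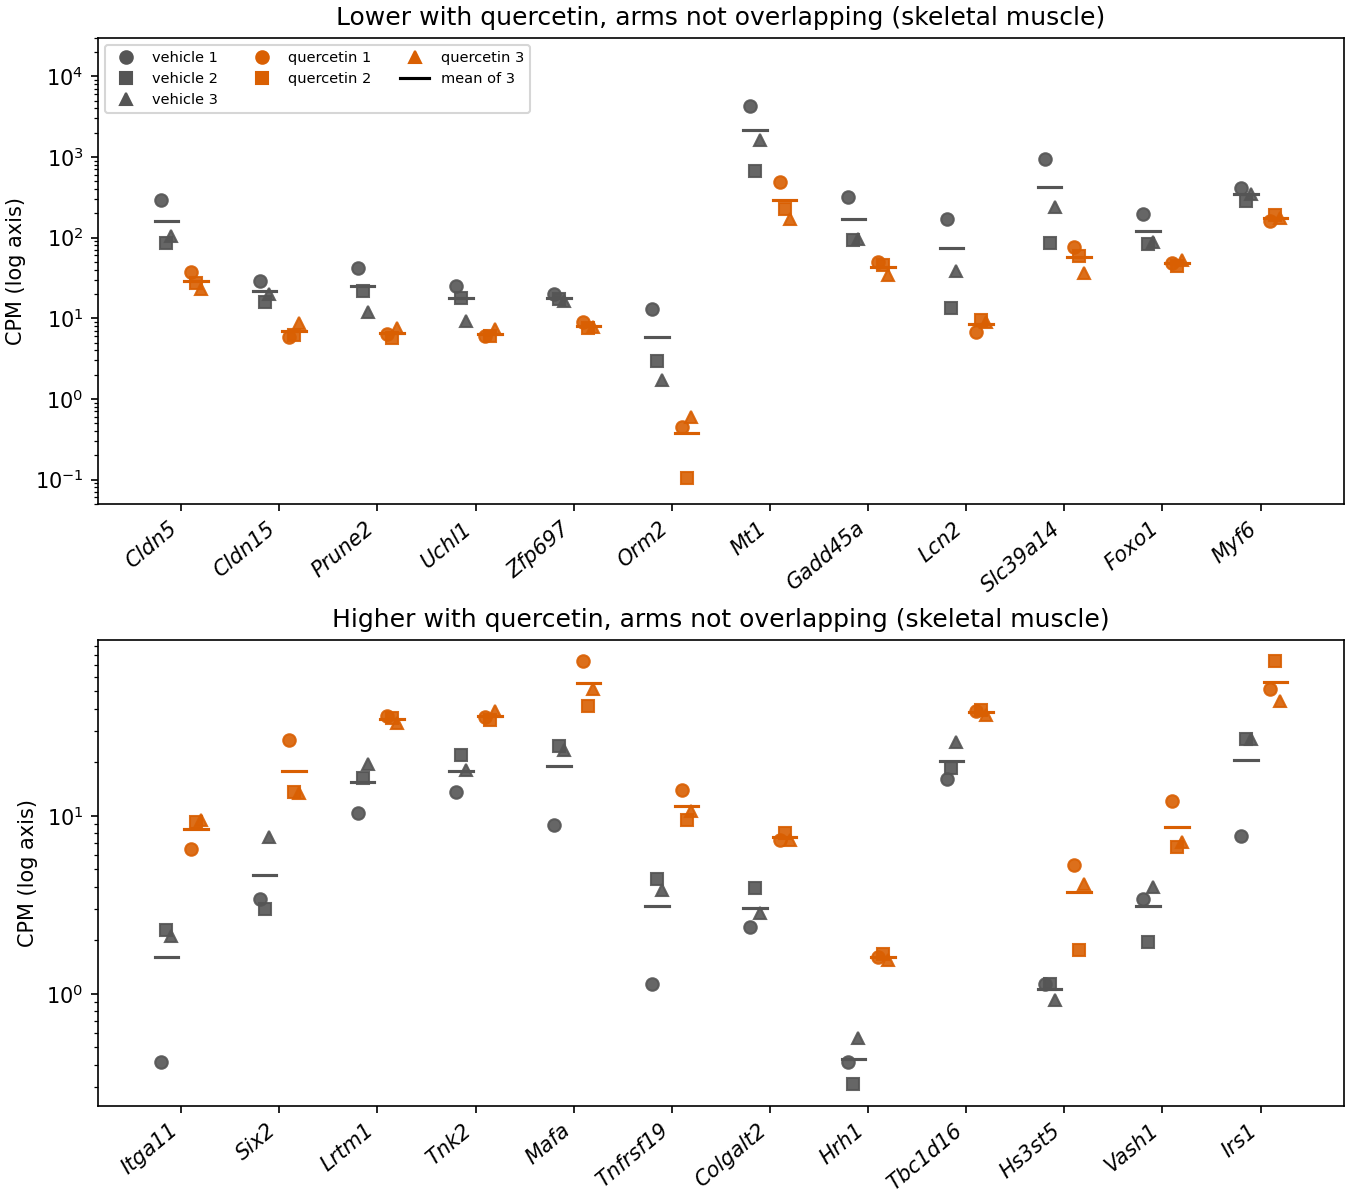
CPM on a log axis for 12 genes lower (upper panel) and 12 genes higher (lower panel) with quercetin whose arms do not overlap, 1 point per library (grey vehicle, orange quercetin, shape for the library number) with a line at the mean of 3. Vehicle 1 (grey circles) is the top library for each of the 12 lower genes, far above the others for Slc39a14 and Lcn2, while Myf6 and Zfp697 are tight in both arms.

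Genes of muscle protein breakdown were lower with quercetin in nearly all members, and most of that difference lay in vehicle 1. Trim63 (MuRF1) was at 7554, 707 and 754 CPM with vehicle and 419, 354 and 503 CPM with quercetin, and Fbxo32 (atrogin-1) at 5276, 347 and 361 CPM with vehicle and 286, 230.0 and 308 CPM with quercetin. In both genes vehicle 1 was far above every other library, and vehicle 2 and 3 were still above all quercetin libraries. The log2 fold changes of -2.82 ± 0.94 and -2.86 ± 1.05 became -0.78 and -0.36 without vehicle 1. Foxo1, the factor that drives both ligases (ENSMUSG00000044167, chromosome 3, 52268336 to 52353221, plus strand), was at 196, 82.1 and 87.2 CPM with vehicle and 48.5, 43.9 and 52.5 CPM with quercetin, or -1.33 ± 0.39 (-0.81 without vehicle 1). Cblb, a ligase that degrades Irs1, was at 75.9, 34.4 and 55.7 CPM with vehicle and 32.7, 31.2 and 24.2 CPM with quercetin. Pdk4, a FoxO target that turns off pyruvate oxidation, was at 6856, 1785 and 2213 CPM with vehicle and 1421, 1502 and 1480.3 CPM with quercetin. The atrophy and FoxO list had 22 tested members, 20 lower and 2 higher, and 5 of them were separated between the arms (Trim63, Fbxo32, Foxo1, Cblb and Pdk4), all lower, where 4.14% of all genes were separated and lower. Its median of -0.86 became -0.17 without vehicle 1, against -0.034 and -0.023 over all genes. In that fit 17 members were lower and 5 higher.

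The promoter of Trim63 is shown because its regulation by FoxO factors and the glucocorticoid receptor is well established. The window is chr4:134314870-134315149 (GRCm38.p6, plus strand, 250 bases before to 30 after the RefSeq start), with the FoxO motif GTAAACA, found on the minus strand, in capitals.

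Trim63 promoter: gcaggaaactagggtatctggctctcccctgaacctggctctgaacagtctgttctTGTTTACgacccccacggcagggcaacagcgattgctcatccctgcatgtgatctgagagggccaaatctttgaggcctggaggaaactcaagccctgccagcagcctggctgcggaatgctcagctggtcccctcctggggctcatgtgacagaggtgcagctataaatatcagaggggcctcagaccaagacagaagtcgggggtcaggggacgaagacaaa

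The motif starts 194 bases before the start site, and 3.49% of 32851 promoters of that length held it on either strand. A glucocorticoid half-site, AGAACA, was found on the minus strand 200 bases before the start, a motif in 17.8% of promoters. Fbxo32 had no entry in the promoter table.

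The 31 proteasome subunits were lower in all 31 members with a median of -1.02, and 28 of 31 were still lower without vehicle 1, with a median of -0.17. Psmd4, a ubiquitin receptor of the proteasome, was at 1204, 195 and 128 CPM with vehicle and 105, 128 and 143 CPM with quercetin. Vehicle 3 was inside the quercetin range. Psmd11, a lid subunit, was at 668, 146 and 139 CPM with vehicle and 96.6, 125 and 112 CPM with quercetin. It was the only separated one of the 31 subunits, where 4.14% of all genes were separated and lower. Of the autophagy and lysosome genes, 20 of 25 were lower (median -0.56), and 17 of 25 without vehicle 1 (median -0.12). There were 6 separated members, all lower, where 4.14% of all genes were separated and lower: Gabarapl1, Bnip3, Bnip3l, Ctsl, Atp6v1h and Atp6v0d1. Ctsl, the lysosomal protease cathepsin L, was at 1178, 188 and 186 CPM with vehicle and 137, 146 and 129.6 CPM with quercetin. Gabarapl1, a protein of the autophagosome membrane, was at 386, 147 and 129 CPM with vehicle and 62.7, 117 and 97.9 CPM with quercetin. The 2 lower vehicle libraries of both genes were above the quercetin arm by less than the distance to vehicle 1. Ribosomal protein genes were lower in 50 of 51, with a median of -0.39, and no member was separated. Without vehicle 1 they were lower in 29 and higher in 22, with a median of -0.035.

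Glucocorticoid-responsive genes were also lower in nearly all members. Of 20 members, 19 were lower and 1 higher, with a median of -0.93. Without vehicle 1, 14 were lower and 6 higher, with a median of -0.33. There were 5 separated members, all lower (4.14% over all genes): Mt1, Sgk1, Cdkn1a, Foxo1 and Lcn2. Of these, Mt1 is also in the metallothionein list and Foxo1 in the atrophy list. Sgk1, a kinase induced by glucocorticoids, was at 848, 362 and 350.2 CPM with vehicle and 208, 169 and 272 CPM with quercetin, or -1.27 ± 0.44 (-0.72 without vehicle 1). Cdkn1a, the cell cycle inhibitor p21, was at 1359.6, 242 and 234 CPM with vehicle and 129, 98.6 and 218 CPM with quercetin, with quercetin 3 close to vehicle 2 and 3. Cell cycle inhibitors and p53 targets together were 10 higher and 11 lower of 21, with a median of -0.063 (0.050 with upper-quartile factors and 0.049 without vehicle 1). In the clock list, 14 of 20 genes were lower and 6 higher, and the median moved from -0.46 to 0.072 without vehicle 1. Cry2, a repressor of the clock, stood at 475 CPM in vehicle 1, far above the 64.6 to 74.3 CPM of the other 5 libraries. Per2, another repressor, was separated, at 69.0, 49.9 and 49.4 CPM with vehicle and 38.1, 38.9 and 34.7 CPM with quercetin, and so was Hlf, a PAR-domain output factor, in the other direction, at 5.60, 7.63 and 8.13 CPM with vehicle and 12.4, 18.3 and 9.96 CPM with quercetin. Dbp, its relative, was the third separated clock gene and was also higher with quercetin. Over all genes, 5.11% were separated and higher and 4.14% separated and lower. No source used here gives the hour of sampling. Immediate early genes had a median of -0.29 over 23 members, which was 0.60 without vehicle 1 and -1.04 without quercetin 1. They summed to 5697, 1972 and 1116 CPM with vehicle and 4722, 1135 and 1210 CPM with quercetin, so 1 library of each arm was high.

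**Figure D3:**
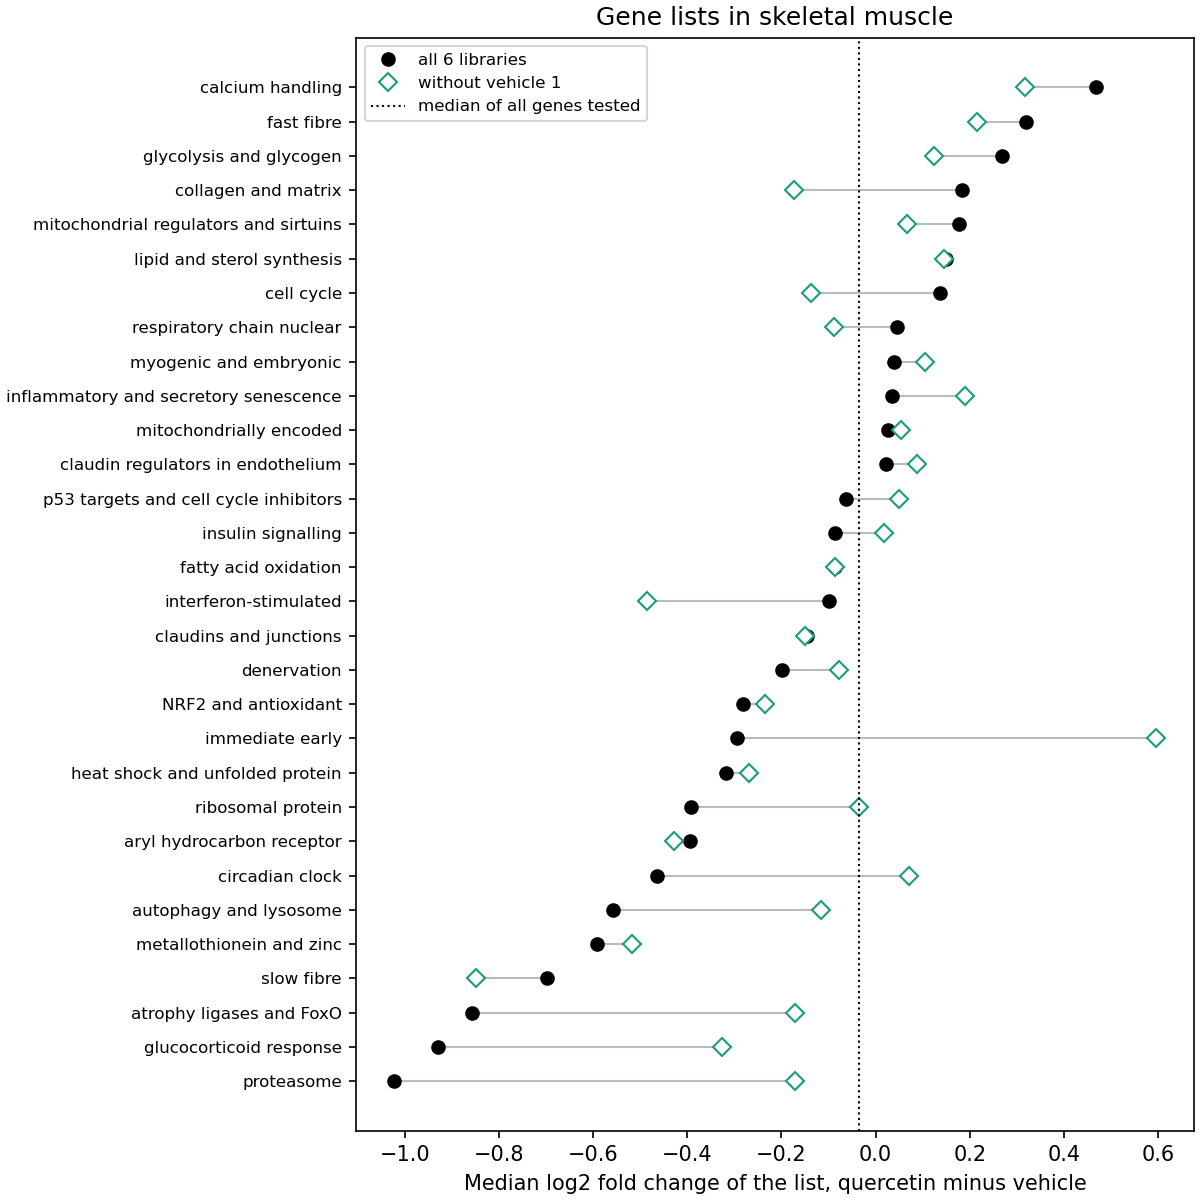
Median log2 fold change, quercetin minus vehicle, of each of the 30 pathway lists (horizontal axis) over all 6 libraries and without vehicle 1. The median of all genes is a line, and lists of cell type markers are not drawn. The medians of the proteasome and atrophy lists move from -1.02 and -0.86 to -0.17 and -0.17, while calcium handling is at 0.32 without vehicle 1.

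Genes of excitation-contraction coupling were higher with quercetin, and their median moved less without vehicle 1 than that of the atrophy and FoxO list. Vehicle 1 was still the lowest library for all separated members named below except Jph1. Of 19 tested calcium handling genes, 17 were higher and 2 lower, with a median of 0.47. Over the fits that leave out 1 library, that median ran from 0.32 without vehicle 1 to 0.66 without vehicle 2. The arms were separated for 6 members, all higher, where 5.11% of all genes were: Cacna1s, Jph1, Jph2, Sypl2, Trdn and Stim1. Cacna1s, the voltage sensor of the transverse tubule, was at 286, 302 and 409 CPM with vehicle and 591, 495 and 610.3 CPM with quercetin. The gap between vehicle 3 and quercetin 2 was smaller than the range of the vehicle arm, and the log2 fold change was 0.77 ± 0.31 (0.67 without vehicle 1). The junctophilins tie the tubule to the sarcoplasmic reticulum: Jph1 was at 385, 315 and 275 CPM with vehicle and 488, 434 and 553 CPM with quercetin. Jph2 was at 138, 799.7 and 805 CPM with vehicle and 1570.1, 1119 and 1249 CPM with quercetin, with vehicle 1 far below the rest. Stim1, the calcium sensor of store-operated entry, was at 114, 191 and 202 CPM with vehicle and 281, 235 and 257 CPM with quercetin. Trdn, the triadin of the release complex, was at 446, 626 and 565 CPM with vehicle and 803, 657 and 806 CPM with quercetin. Sypl2, mitsugumin 29, stood at 14.8 CPM in vehicle 1, far below the 221 to 451 CPM elsewhere.

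Myosins and most other fibre-type genes overlapped between the arms, and single libraries set their medians. Per kilobase of exon, Myh4, the IIb myosin of the fastest fibres, made up 94.9, 81.0 and 81.2% of the 4 adult myosins with vehicle and 91.0, 82.7 and 73.3% with quercetin. Myh1 (IIx) made up 4.90, 13.4 and 14.4% and 7.79, 15.2 and 19.5%, and Myh2 (IIa) 0.229, 5.54 and 4.41% and 1.22, 2.11 and 7.16%. Myh7, the slow myosin, was at most 0.0756%. Vehicle 1 and quercetin 3 were at the ends of the range for Myh4, with the other libraries between them. Slow fibre genes were lower in 13 of 16 (median -0.70), but the median turned to 0.87 without vehicle 2, the library highest in them, and was -2.43 without quercetin 3. Myl3, the slow ventricular-type light chain, was at 2.39, 339 and 6.51 CPM with vehicle and 0.358, 0.834 and 34.7 CPM with quercetin, highest in vehicle 2 and next in quercetin 3. Atp2a2 (SERCA2), the slow calcium pump, was the only separated member, at 131, 229.6 and 118 CPM with vehicle and 99.8, 84.3 and 84.3 CPM with quercetin. Fast fibre genes were higher in 17 of 22 (median 0.32, from 0.14 without quercetin 3 to 0.68 without vehicle 2), with Myoz3, a fast Z-disc protein, as the only separated member, at 8.09, 30.01 and 71.2 CPM with vehicle and 135, 92.2 and 94.6 CPM with quercetin. Myog, the early myogenic regulator that denervation also raises, was at 159.5, 61.0 and 12.2 CPM with vehicle and 5.65, 15.9 and 25.4 CPM with quercetin, with overlapping arms. Denervation genes were 9 higher and 11 lower of 20, with a median of -0.20 (0.065 without vehicle 2).

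**Figure D4:**
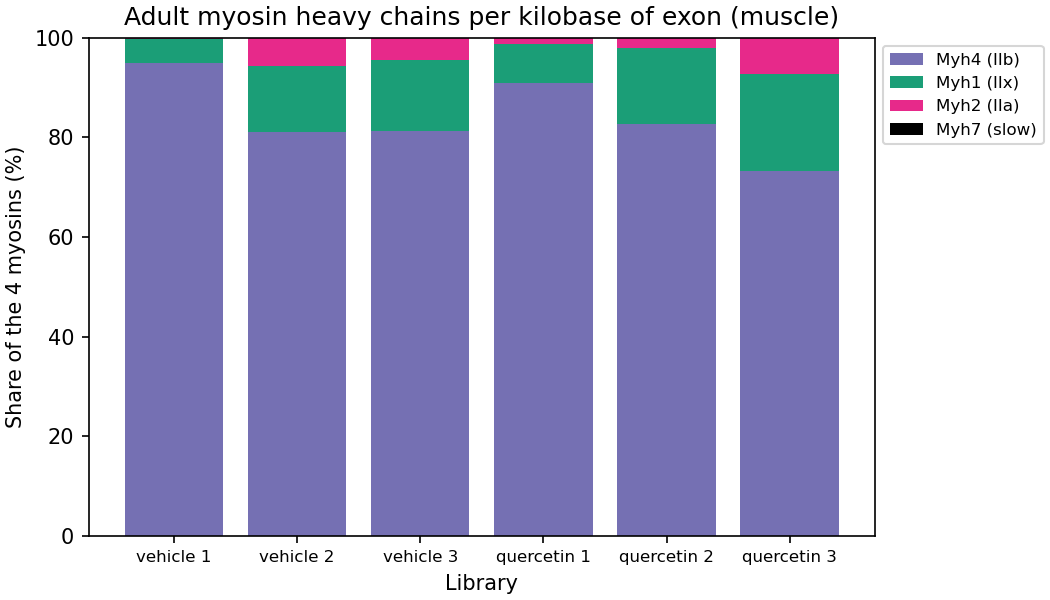
Share of each of the 4 adult myosin heavy chain transcripts, per kilobase of exon, in percent (stacked bars from 0 to 100) for each library. Myh4 (IIb) fills 73.3 to 94.9% of every bar, and vehicle 1 and quercetin 1 are both highest in Myh4, 1 in each arm.

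The medians of the energy metabolism lists moved with single libraries, several of them to the other sign. Glycolysis and glycogen genes were higher in 17 of 25 (median 0.27, from 0.12 without vehicle 1 to 0.66 without vehicle 2). Nuclear respiratory chain genes were 26 higher and 18 lower of 44, with a median of 0.045. Without vehicle 1 they were 14 higher and 30 lower, with a median of -0.089. That median was 0.41 without vehicle 2, -0.19 without vehicle 3 and -0.25 without quercetin 3. Mitochondrially encoded genes were 7 higher and 6 lower of 13, with a median of 0.027 that ran from -0.15 without quercetin 3 to 0.20 without quercetin 1. Fatty acid oxidation genes had 17 lower and 8 higher members of 25 and a median of -0.086 (0.0066 with upper-quartile factors, 0.039 without vehicle 2 and 0.14 without quercetin 1). Ucp3, the muscle uncoupling protein, was its only separated member, at 623, 585 and 492 CPM with vehicle and 461, 483 and 454 CPM with quercetin. Among mitochondrial regulators and sirtuins, 13 of 22 were higher, with a median of 0.18 (from 0.034 without quercetin 3 to 0.55 without vehicle 2). Ppargc1b, a coactivator of mitochondrial genes, was separated and higher, at 1.87, 3.92 and 10.3 CPM with vehicle and 12.4, 12.4 and 11.7 CPM with quercetin. Vehicle 3 came close to the quercetin arm. Nrf1, nuclear respiratory factor 1, was separated and lower, at 49.5, 17.8 and 17.2 CPM with vehicle and 14.5, 15.6 and 16.5 CPM with quercetin, or -0.86 ± 0.44, and -0.17 without vehicle 1, the highest library. Ppargc1a, a relative of Ppargc1b, was at 16.7, 105 and 45.8 CPM with vehicle and 60.3, 78.7 and 62.5 CPM with quercetin, and Sirt1, a deacetylase studied in aging, at 28.1, 17.8 and 13.5 CPM with vehicle and 20.3, 14.7 and 11.5 CPM with quercetin, both with overlapping arms.

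Stress-response lists were lower in most members. Of 24 NRF2 targets and antioxidant genes, 20 were lower and 4 higher (median -0.28, from -0.54 without quercetin 2 to -0.21 without quercetin 1). Prdx6 and Txn1 were separated and lower, where 4.14% of all genes were. Txn1, thioredoxin, was at 318, 109 and 98.6 CPM with vehicle and 56.5, 89.7 and 84.5 CPM with quercetin. Hmox1, heme oxygenase 1, was at 21.4, 57.4 and 61.1 CPM with vehicle and 22.0, 36.1 and 21.2 CPM with quercetin, high in vehicle 2 and 3 and not in vehicle 1. Nqo1, the classical NRF2 target, was at 19.7, 27.1 and 15.2 CPM with vehicle and 15.5, 19.3 and 24.1 CPM with quercetin, and its log2 fold change of -0.076 was 0.036 with upper-quartile factors. Heat shock and unfolded protein genes were lower in 22 of 28 (median -0.32, -0.046 without vehicle 2). Hspb7, a small heat shock protein of muscle, was at 3094, 1897 and 1012 CPM with vehicle and 251, 807 and 1216 CPM with quercetin. Of 10 aryl hydrocarbon receptor genes 8 were tested, 7 of them lower (median -0.39, from -0.75 without quercetin 1 to -0.18 without vehicle 3), and Cyp1b1 was at 4.25, 9.90 and 56.0 CPM with vehicle and 35.4, 9.07 and 12.1 CPM with quercetin, with the highest value in 1 library of each arm. No member of either list was separated. Of 31 genes of inflammation and the secretory senescence profile 20 had enough counts, 11 higher and 9 lower, with a median of 0.034 (from -0.22 without quercetin 1 to 0.45 without vehicle 3) and none separated. Tnf was at 49, 1 and 1 reads with vehicle and 2, 3 and 1 reads with quercetin, and Il6 at 24, 3 and 5 reads and 46, 0 and 0 reads, too few for the test.

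Antigen-presenting genes were higher with quercetin. All 7 tested MHC class II genes had a higher estimate, with a median of 1.30 (0.78 without vehicle 1), and 5 were separated, where 5.11% of all genes were separated and higher: H2-Aa, H2-Ab1, H2-Eb1, H2-DMa and H2-DMb1. H2-Aa, a class II alpha chain, was at 3.22, 29.7 and 39.5 CPM with vehicle and 72.5, 40.2 and 65.4 CPM with quercetin. Quercetin 2 and vehicle 3 were almost equal. The list summed to 13.3, 166 and 217 CPM with vehicle and 389, 223 and 379 CPM with quercetin, so vehicle 1 was far below the rest. Macrophage markers were higher in 15 of 19, and in 10 of 19 without vehicle 1. Their median was 0.49 (from 0.044 without vehicle 1 to 1.75 without vehicle 3), with sums of 169, 431 and 847 CPM with vehicle and 717, 496 and 986 CPM with quercetin. Csf1r, the receptor for macrophage colony-stimulating factor, was at 3.73, 17.4 and 26.2 CPM with vehicle and 36.5, 29.6 and 51.3 CPM with quercetin. Fibroblast and tendon markers were higher in 16 of 18, and in 11 of 18 without vehicle 1 (median 0.55, from 0.15 without vehicle 1 to 1.20 without vehicle 3). They summed to 1056, 2582 and 5986 CPM with vehicle and 5009, 3639 and 4178 CPM with quercetin. Here too vehicle 1 was the lowest library, and vehicle 3 was above all quercetin libraries. Abca8a, a lipid transporter of fibroblasts, was at 18.9, 44.7 and 72.7 CPM with vehicle and 93.0, 101 and 115 CPM with quercetin. Matrix genes were higher in 23 of 32 with a median of 0.18, which was -0.17 without vehicle 1 and 1.11 without vehicle 3. Of the nerve markers, 12 of 14 were higher (median 0.45, from 0.20 without vehicle 1 to 0.85 without vehicle 3).

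Antibody and fat transcripts varied widely between libraries of the same arm. B and plasma cell markers were higher in 6 of the 8 tested of 13 (median 1.91, 0.98 without quercetin 3), and their sum was 1205 CPM in quercetin 3 against 269.8 to 526 CPM elsewhere. Igkc, the kappa light chain constant region, was at 2.80, 0.722 and 28.9 CPM with vehicle and 87.8, 18.5 and 356 CPM with quercetin. Ighg2b, a heavy chain constant region, was at 0.622, 0 and 1.91 CPM with vehicle and 54.7, 0.730 and 8.77 CPM with quercetin. Igkc was highest in quercetin 3 and Ighg2b in quercetin 1. Ighg2b passed in edgeR with no filter on low counts (adjusted p = 0.0476), a fit that also passed genes read in 1 library. Adipocyte markers were lower in 14 of 14 (median -0.95), but the median turned to 3.17 without vehicle 3, the library with the most fat transcripts, and was -2.43 without quercetin 2, the second highest. It was -0.60 and -0.46 without quercetin 1 and 3. The part of these other cell types in the gene-level differences was not tested, apart from the values given without each library.

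**Figure D5:**
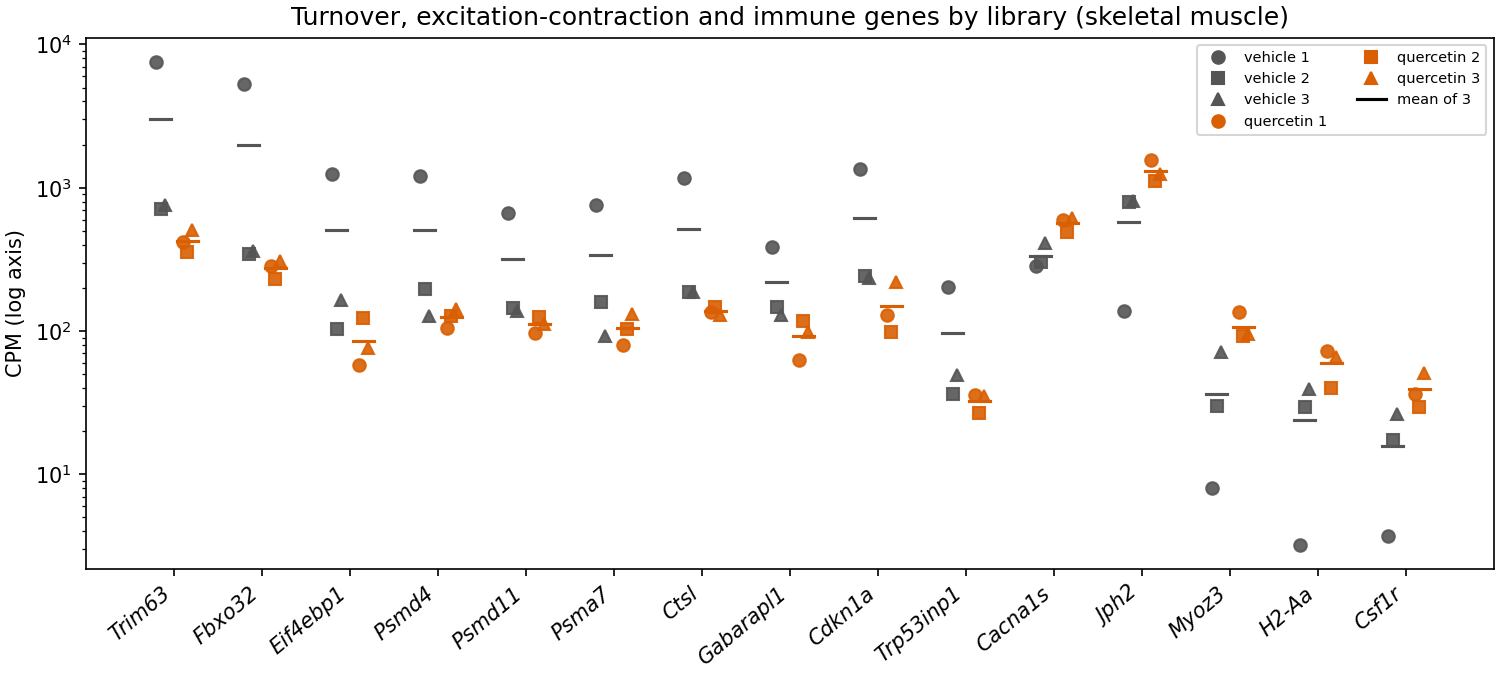
CPM on a log axis for 15 genes of protein turnover, cell cycle arrest, excitation-contraction coupling and antigen presentation or macrophages, 1 point per library (grey vehicle, orange quercetin, shape for the library number) with a line at the mean of 3. Vehicle 1 (grey circles) is the highest library for Trim63, Fbxo32 and the proteasome genes and the lowest for Jph2, Myoz3, H2-Aa and Csf1r, while the grey squares and triangles of vehicle 2 and 3 lie near the orange points.

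To see whether the muscle differences were particular to muscle, the effect of quercetin in muscle was set against the mean of its effects in white and brown fat, in a fit of all 18 libraries. Of 16388 genes, 0 (0%) passed in edgeR (smallest adjusted p = 0.99998), and 269 had an unadjusted p under 0.05. No gene can therefore be called particular to muscle. In the fats Cldn5 had log2 fold changes of -1.29 ± 0.75 in white fat and 0.052 ± 0.74 in brown fat (SE), and the difference of muscle from their mean was -1.79 ± 0.913. Mt1 had -0.28 ± 1.19 in white fat and 0.56 ± 1.20 in brown fat, with a difference of -2.98 ± 1.502. Foxo1 had -0.34 ± 0.38 in white fat and 0.034 ± 0.38 in brown fat, with a difference of -1.13 ± 0.464. These differences did not pass the test.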

How the data were processed

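Gene counts of 6 skeletal muscle libraries, and for 1 contrast of all 18, were used as the authors deposited them: raw counts per Ensembl gene for 53465 genes, without normalisation. The submitters' processing notes name the aligner HISAT2, the counter HTSeq, DESeq2 and the build mm10. Versions, annotation and strand setting: not given in the sources used here. The 5 summary lines per file were left out of totals (reads without a feature 2.53 to 5.31%, ambiguous reads 8.19 to 9.84%). Symbols matched 53274 genes, and coordinates are from GENCODE on GRCm38. No pair of libraries agreed within sampling noise.

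Groups came from the labels. Genes were kept by filterByExpr (minimum count 10, minimum total 15), scaled by TMM, and tested with glmQLFit and glmQLFTest of edgeR 4.0.16 (R 4.3.3), two-sided, with Benjamini-Hochberg adjustment and a threshold of 0.05. The difference between muscle and the fats was a contrast over 6 groups. CPM were computed with TMM factors, errors are SD over 3 libraries or SE of the fit, and "separated" means that the CPM of the arms do not overlap. The labels number the libraries without tying each to its own animal, so each p-value measures only how these libraries spread, which may be technical. The numbers were not taken to pair libraries across arms, and the labels do not say whether they do. Alternatives were DESeq2 1.42.0, limma 3.58.1 with voom, other factors and filters, a replicate block, and each library left out.

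The text names up to 12 higher and 12 lower genes with the smallest unadjusted p among separated genes whose sign held in all 6 fits without 1 library, up to 3 members per list with the smallest p, a panel of 21 genes, and separated members of lists, added after their values were seen. Some genes taken by the rule are not reported here. The 48 lists hold 976 entries, of which 4 had no match. The members and lists were chosen with earlier results of these data known. A list is described by counts and its median, with no test. Promoters are from RefSeq. The scripts were tested on simulated data, in which 35% of 4-fold and 97% of 16-fold differences passed the adjusted threshold. Most 4-fold differences would thus be missed. No simulated library was set apart as vehicle 1 was.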

Additional observations from a re-analysis of the deposited data

How the results depend on the processing

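The count of 0 genes past the threshold held in every alternative run for muscle except the fit with no filter on low counts, which gave 32 of 26302 genes. The smallest adjusted p in DESeq2 was 0.0528. The count was also 0 for the difference between muscle and the fats in each of its alternatives. At an unadjusted p under 0.05 there were 406 genes (132 higher and 274 lower), 610 in DESeq2, 286 with limma voom (188 and 98), 343 with upper-quartile factors (167 and 176), and 143 to 1728 without 1 library. The highest of these was the fit without vehicle 3, and without vehicle 1 there were 325, of which 172 were among the 406. Upper-quartile factors moved the median of all genes from -0.034 to 0.078, so small list medians change sign with scaling. The count of 1254 separated genes was 1245 to 1304 under other factors or filters.

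Same-numbered libraries did not vary together: their deviations from the arm means correlated at -0.022, -0.15 and -0.295, so the numbers were not taken as pairs. With 3 libraries per arm, these values cannot exclude a pairing. With the replicate number as a block, 0 genes passed and 246 had an unadjusted p under 0.05.

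Of 1043 values of 116 named genes under settings that keep all 6 libraries, 5 changed sign: Myh2 (-0.67 with voom and library weights), Myh4 (0.014) and Nqo1 (0.036) with upper-quartile factors, and Cyp1b1 (0.15 with voom and 0.13 with the replicate block). Without 1 library, 11 of 696 values changed sign, in 8 genes, and the cause was not tested: Tnnt1 ranged from -3.61 to 0.84, Myl3 from -7.61 to 1.44, Myh2 from -0.93 to 0.92, Myh4 from -0.35 to 0.20, Myh7 from -4.51 to 0.90, Ppargc1a from -0.17 to 1.12, Nqo1 from -0.26 to 0.18 and Cyp1b1 from -1.15 to 1.42. With 3 libraries per arm, genes at a few reads are limited by depth as well as by the number of libraries.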

Other observations

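Further lists and markers gave the following values in muscle. Lipid and sterol synthesis genes had 14 higher and 9 lower members of 23, with a median log2 fold change of 0.15 (1.06 without vehicle 3, the library with the most fat transcripts, and -0.10 without quercetin 2). Interferon-stimulated genes were 10 higher and 21 lower of 31 tested, with a median of -0.099 (-0.49 without vehicle 1 and 0.36 without vehicle 3), and Isg15, a ubiquitin-like interferon target, was at 1.45, 5.98 and 6.01 CPM with vehicle and 3.58, 2.40 and 1.54 CPM with quercetin. Myogenic and embryonic genes were 7 higher and 7 lower, with Mef2c separated and higher and Myf6 separated and lower. Cell cycle genes were 8 higher and 6 lower of 14 tested, and Pcna, the sliding clamp of replication, was the only separated one and was lower.

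Satellite cell markers were 3 higher and 5 lower of 8, with a median of -0.079 (0.055 without vehicle 1 and 0.059 with upper-quartile factors). The syndecan Sdc4 was the only separated one, at 386, 107 and 117 CPM with vehicle and 105, 56.8 and 52.2 CPM with quercetin. Pericyte and smooth muscle markers were 7 higher and 4 lower of 11, neutrophil and mast cell markers 6 and 4 of 10, red blood cell markers 1 and 5 of 6, and epithelial markers 2 and 3 of 5. Brown adipocyte markers were 8 higher and 4 lower of 12, with a median of 0.19 that was -0.078 without quercetin 2 and -0.070 without vehicle 1. Ucp1, the uncoupling protein of brown fat, had 2256 reads in quercetin 2 and 0 to 6 reads in each other library. Of 14 T and NK cell markers 1 had enough counts to be tested, Cd3e, a chain of the T cell receptor complex, at 0, 1.34 and 1.70 CPM with vehicle and 5.29, 2.40 and 3.08 CPM with quercetin. Of 9 mesothelial markers 2 were tested, 1 higher and 1 lower, the lower one being Cldn15, and of 10 bone and cartilage markers 1.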
